A study of Mus musculus with 33 samples.

Results

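The 34 genes described here encode the machinery that brings pyruvate into the mitochondrion, turns it into acetyl-CoA and oxidises it in the tricarboxylic acid (TCA) cycle. They were found by gene symbol in 3 tables of normalized counts from mouse heart muscle cells (cardiomyocytes). All 34 were present among the 32245 genes of each table, and all 34 passed the filter on low values, a normalized count of at least 10 in as many libraries as the smallest group holds. No member passed the test in any of the 13 comparisons between genotypes. Their levels, their spread between libraries and the size of the differences that the data still allow are given below, by the members' roles.

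As background, the pyruvate carrier (Mpc1, Mpc2) takes pyruvate across the inner mitochondrial membrane. The pyruvate dehydrogenase complex then makes acetyl-CoA from it. Kinases (Pdk1 to Pdk4) switch the complex off by phosphorylating its E1 alpha subunit, and phosphatases switch it on again. The TCA cycle oxidises the acetyl group and passes the electrons to the respiratory chain. The heart burns mostly fatty acids, and pyruvate dehydrogenase is where glucose and fat compete.

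Each table holds 1 mouse line in which Ptpmt1 was deleted in cardiomyocytes. Ptpmt1 is a phosphatase of the inner mitochondrial membrane on the path to cardiolipin. The FST line joins this deletion to a mutation that the labels call Eif2a or Eif2alpha, the alpha subunit of initiation factor eIF2, whose own gene symbol is Eif2s1. It was represented by 3 controls, 3 Eif2a mutants, 3 Ptpmt1 knockouts and 3 double mutants. The PHT line joins it to loss of Hri (Eif2ak1), with 2 controls, 2 Hri knockouts, 3 Ptpmt1 knockouts and 2 double knockouts. The single Hri group is labelled a cardiomyocyte-specific knockout, and the double group's label names no cell type for Hri. The PTGC line joins it to loss of Gcn2 (Eif2ak4), with 3 controls and 3 double knockouts and no single mutant. Hri and Gcn2 are kinases that phosphorylate eIF2 and thereby start the integrated stress response (ISR). The controls are labelled only as such. For their alleles, the Cre driver, the animals' age and any pooling the sources used here give no word, and p-values measure the spread between these libraries.

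The labels give nuclear RNA, and libraries were depleted of ribosomal RNA. Depth ran from 6535417 to 19405261 reads per library, with 1 exception, FST double mutant 2, at 1887978 reads. Ptpmt1 fell in each knockout group against its controls, to log2 fold changes of -2.17 (FST), -2.44 (PHT) and -2.18 (PTGC), with no overlap between libraries. The genes of the second mutations were not called: Eif2ak1 read 416 and 389 in the Hri knockouts against 548 and 590.4 in their controls and 476 and 545 in the PHT double knockouts, and Eif2ak4 386, 352 and 313 in the PTGC double knockouts against 432, 491 and 251. Whether the counted exons include the deleted part was not tested, so these values do not check the Hri and Gcn2 labels. All 12 cardiomyocyte markers were tested in each table and took 5.75% to 8.73% of a library's signal, and 8 macrophage markers took at most 0.00808%. Markers of other cells took more than the macrophage ones, at most 0.779% (erythroid), 0.291% (fibroblast), 0.192% (mural) and 0.14% (endothelial). Some libraries stood apart from their group. FST Ptpmt1 knockout 3 had 8 members more than 0.3 log2 units above the mean of the other 2 knockouts, and its summed fibroblast and erythroid markers were at 0.291% and 0.223% of signal against 0.148% to 0.15% and 0.064% to 0.0712% in those 2. PTGC control 3 had 14 members that far above its mates, with 3.42% of signal from mitochondrially encoded genes against 2.41% and 1.79%. FST Ptpmt1 knockout 2 had 9 members that far below its mates. FST Eif2a mutant 1 had reads on 15157 genes, the fewest of the 27 libraries. By sex-linked genes, all 3 FST Ptpmt1 knockouts and all 3 Eif2a mutants were male, against 1 of 3 controls and 2 of 3 double mutants, and each PTGC group held 2 males of 3. In PHT both controls were female, both Hri knockouts and both double knockouts male, and 1 of 3 Ptpmt1 knockouts was male, so that sex and genotype cannot be told apart between those controls and either group with the Hri label. The part of these libraries in the results below was not tested. Values without PTGC control 3 or an FST Ptpmt1 knockout are given beside some, not all, of the estimates that these moved by over 1.5 times. An estimate with no such value beside it is therefore not shown to be stable.

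Levels were compared between genes per length, as mean normalized counts per kilobase of exon in the controls. The cytosolic and mitochondrial dehydrogenases Mdh1 and Idh2 stood highest, at 2110.5 and 2297 in FST, 3114 and 3409 in PHT and 4191 and 3956 in PTGC. Sdhd, a membrane anchor of succinate dehydrogenase, followed at 1068, 1735 and 2125. The malic enzyme Me3 was lowest in all 3 tables, at 2.83, 3.87 and 4.18. The phosphatase Pdp1 (23.8, 36.3 and 52.4) and the carrier subunit Mpc2 (41.5, 71.0 and 84.4) were also in the lower part. Within the pyruvate dehydrogenase complex the order was Pdha1, Pdhb, Dld, Dlat and Pdhx in FST and PHT, with Dld above Pdhb in PTGC. The 34 members together took between 0.582% and 0.809% of the signal of a library.

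**Figure D1:**
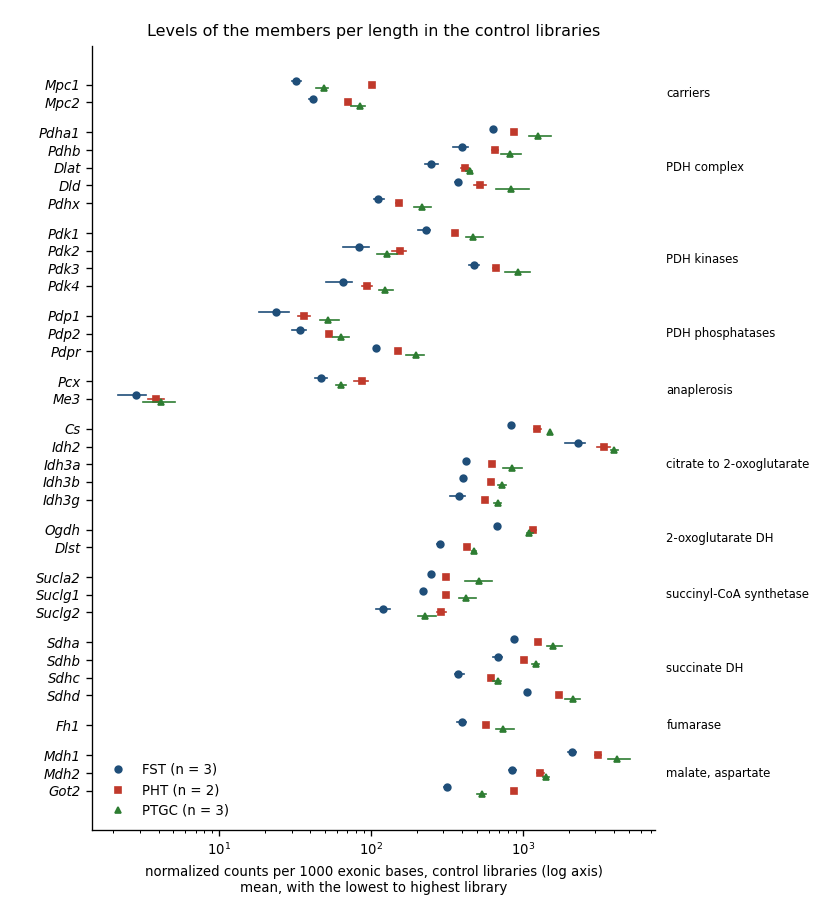
Normalized counts per kilobase of exon (log axis) of each member in the control libraries of the 3 tables; symbols are means, lines run from the lowest to the highest library, and genes are ordered by role. Mdh1 and Idh2 are the highest and Me3 the lowest in every table; tables were normalized separately, so only the order within a table can be read.

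The first question was whether loss of Ptpmt1 moves these genes, and whether the eIF2 mutation or loss of an eIF2 kinase alters that. By limma with Benjamini-Hochberg adjustment over all genes tested, 0 of 34 members were called at an adjusted p under 0.05 in each of the 13 comparisons. In FST, 0.504% of 13896 genes were called between Ptpmt1 knockout and control, in PHT 0.301% of 14965, and between PTGC double knockouts and controls 0.743% of 14128. With such small shares, a count of 0 among 34 genes is near the background. At an unadjusted p under 0.05, 4, 1 and 7 members passed in these 3 comparisons, beside 13.4%, 4.79% and 11.5% of all genes. The Eif2a mutation alone gave 3 members at that level (7.97% of genes, 0.036% called), and loss of Hri alone gave 0 (3.24%, 0.02% called). Against control, 8 members reached it in FST double mutants (10.1%, 0.144% called) and 1 in PHT double knockouts (6.58%, 0.0267% called). Against the Ptpmt1 knockouts, 2 reached it in FST double mutants (13.8%, 0.878% called) and 3 in PHT (8.29%, 0.327% called). Against the other single mutant, 6 did in FST (8.14%, 0.0072% called) and 0 in PHT (5.83%, 0.02% called). The interaction gave 0 members in FST (7.06%, 0.0216% called) and 1 in PHT (4.64%, 0.12% called). edgeR called 0 members in all 13 comparisons. DESeq2 called 1 member, Ogdh, between FST Ptpmt1 knockout and control (5.56% of genes with an adjusted p called), and 1, Sdhd, in PTGC (1.27%).

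The genes of the ISR list behaved differently in the same fits. Of its tested genes, 12 of 14 rose in FST Ptpmt1 knockouts (median log2 fold change 1.47), 13 of 16 in PHT (1.56) and 16 of 16 in PTGC double knockouts (2.08). The member medians in these comparisons were -0.10, -0.021 and -0.18, beside medians of all genes of -0.0052, 0.0034 and 0.0028. Against the Ptpmt1 knockouts, 12 of the 14 ISR genes fell in FST double mutants and 13 of 16 in PHT double knockouts. The list was chosen with its direction in these libraries known, and is not independent evidence of it.

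**Figure D2:**
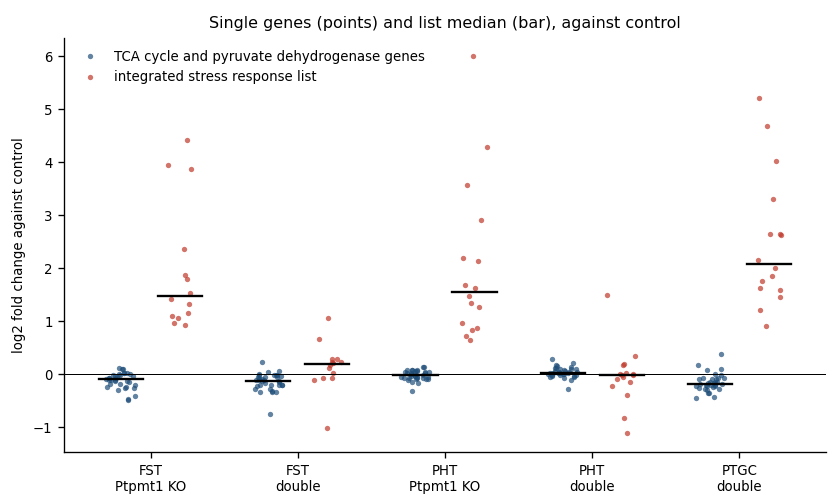
Log2 fold change against control (vertical axis) of each of the 34 members (blue) and of each tested ISR gene (red), with list medians as bars, in the FST and PHT Ptpmt1 knockouts and double mutants and the PTGC double knockouts. The ISR medians lie at 1.47, 1.56 and 2.08 in the Ptpmt1 knockouts of FST and PHT and the PTGC double knockouts, while all member values lie between -0.76 and 0.37.

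The intervals of the fit bound how large a difference could have gone unseen. Between FST Ptpmt1 knockout and control, the 95% interval of 25 of 34 members lay within 0.5 log2 units of 0 (47% of all genes) and that of 33 within 1 (81.5%). In PHT, 33 of 34 lay within 0.5 (59.7% of all genes), and in PTGC 24 of 34 (54.2%). In FST Ptpmt1 knockouts 26 of 34 members had a fold change below 0, beside 51% of all genes, in FST double mutants 31 (50.7%) and in PTGC double knockouts 29 (49.5%). The FST Eif2a mutants, without the Ptpmt1 deletion, had 24 of 34 below 0 against the same controls (51.9%). Without FST Ptpmt1 knockout 2 the count in the FST Ptpmt1 knockouts was 20 of 34 and the member median moved from -0.10 to -0.027. In PHT the counts were 19 of 34 in the Ptpmt1 knockouts (49.1%) and 12 in the double knockouts (50.6%). Fewer cardiomyocytes in a sample and less RNA of these genes per cell cannot be told apart in bulk RNA. Of the 12 cardiomyocyte markers, 11 were below 0 in the FST Ptpmt1 knockouts (median -0.28; 7 at an unadjusted p under 0.05, with 0 called by limma, 1 by edgeR and 5 by DESeq2), 7 in PTGC (median -0.026) and 8 in PHT (median -0.034). All 9 erythroid markers were below 0 in these 3 comparisons, with medians of -0.62, -0.70 and -1.12 in the same order. The part of either in the members' values was not tested.

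**Figure D3:**
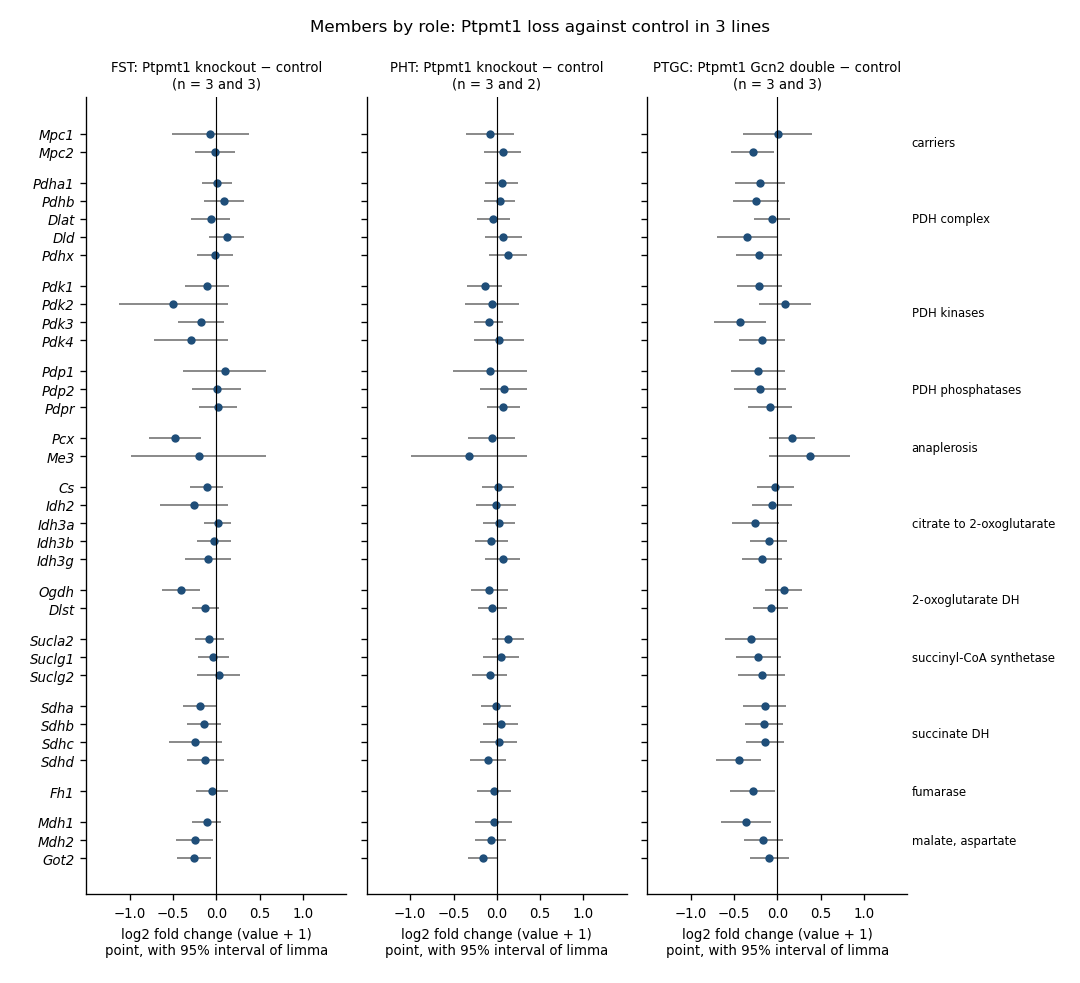
Log2 fold change on the log2(value + 1) scale (horizontal axis; points, with 95% intervals of limma) of the 34 members by role, for Ptpmt1 knockout minus control in FST and PHT and for double knockout minus control in PTGC. Most points lie left of 0 in FST (26 of 34) and PTGC (29 of 34) and near 0 in PHT, and no member passed the adjusted test in any panel. Against the same FST controls, 24 of 34 members were also below 0 in the Eif2a mutants, which are not shown.

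The pyruvate carrier is a heterodimer of Mpc1 and Mpc2. In FST, Mpc1 read 62.5, 65.7 and 72.0 in the controls, 50.7, 62.6 and 51.4 in the Eif2a mutants, 59.7, 56.8 and 75.7 in the Ptpmt1 knockouts and 60.7, 48.6 and 64.4 in the double mutants. The PHT values of Mpc1 were 209 and 216 in the controls, 241 and 243 in the Hri knockouts, 211, 194 and 199 in the Ptpmt1 knockouts and 256 and 262 in the double knockouts. In PTGC Mpc1 gave 90.1, 107 and 109 (controls) against 117, 110.3 and 81.6 (double knockouts). All groups of FST and PTGC overlapped with their controls, whereas both PHT double knockouts lay above every other PHT library. Against the PHT Ptpmt1 knockouts the fold change of Mpc1 was 0.36 ± 0.12 (adjusted p = 0.388), the lowest p of the members in that comparison, and against control it was 0.28 ± 0.14 (adjusted p = 0.757), or 0.19 with a term for sex. In the comparison with the Ptpmt1 knockouts all 9 erythroid markers were higher too (median 1.78), and their part in it was not tested. The 2 PHT Hri knockouts also lay above the controls, at 0.19 ± 0.14 (adjusted p = 0.9998). Of the 2082 exonic bases of Mpc1, 480 are shared with the opposite-strand gene 4930506C21Rik, and the sources used here do not say whether counting used strand. Mpc2, on 274 to 336 in FST and 511 to 584 in PHT, had its lowest p in PTGC, where all 3 double knockouts lay below the controls (-0.29 ± 0.11, adjusted p = 0.378).

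The pyruvate dehydrogenase complex joins E1 (Pdha1, Pdhb), E2 (Dlat), E3 (Dld) and the E3-binding protein Pdhx. Pdha1, the subunit that the kinases phosphorylate, read 2403, 2469 and 2292 in the controls, 2466, 2493 and 2342 in the Eif2a mutants, 2319.8, 2272 and 2629.8 in the Ptpmt1 knockouts and 2479, 2369 and 2473 in the double mutants in FST. In PHT the Pdha1 values were 3176 and 3347 in the controls, 3329 and 3620.3 in the Hri knockouts, 3215, 3437 and 3523 in the Ptpmt1 knockouts and 3073 and 3593 in the double knockouts. In PTGC they were 4248, 4095 and 5716 (controls) against 4129, 3849 and 4121 (double knockouts). The FST and PHT groups of Pdha1 overlapped, and the 95% interval of the Ptpmt1 effect was -0.15 to 0.17 in FST and -0.13 to 0.24 in PHT. In PTGC the fold change of Pdha1 was -0.20 ± 0.13 (adjusted p = 0.510), and without control 3, which lay far above the other controls, it was -0.049. Map3k15, on the opposite strand, shares 603 exonic bases with Pdha1.

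Dld, the E3 subunit that the 2-oxoglutarate dehydrogenase complex also uses, read 1396, 1403 and 1309 in the controls, 1519, 1309 and 1292 in the Eif2a mutants, 1501, 1562 and 1409.6 in the Ptpmt1 knockouts and 1175, 1392 and 1185 in the double mutants in FST. The 3 FST Ptpmt1 knockouts lay above the controls and above all double mutants. The double mutants gave -0.26 ± 0.089 (adjusted p = 0.210) against the Ptpmt1 knockouts, and the interaction, the difference between the Ptpmt1 effects with and without the Eif2a mutation, was -0.26 ± 0.13 (adjusted p = 0.710). In PHT Dld gave 1749 and 2121 in the controls, 1912 and 2113 in the Hri knockouts, 1933, 2115 and 2049 in the Ptpmt1 knockouts and 1788 and 2011 in the double knockouts, with overlapping groups. In PTGC the values were 2809, 2451 and 4035 (controls) against 2437, 2203 and 2503 (double knockouts). The PTGC fold change of Dld was -0.35 ± 0.16 (adjusted p = 0.428), and without control 3, the highest library, it was -0.14.

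Pdhx read 425, 478 and 413 in the controls, 406, 412 and 384 in the Eif2a mutants, 408, 437 and 454 in the Ptpmt1 knockouts and 391, 407 and 391 in the double mutants in FST, where the double mutants lay below the controls and the Ptpmt1 knockouts. In PTGC it gave 833, 753 and 971 (controls) against 748, 672 and 774 (double knockouts), with overlap. In PHT its values were 571 and 624 in the controls, 727 and 616 in the Hri knockouts, 660.2, 647 and 659 in the Ptpmt1 knockouts and 571 and 602 in the double knockouts. The 3 PHT Ptpmt1 knockouts lay above both controls (0.14 ± 0.097) and above both double knockouts, and the PHT interaction of Pdhx was -0.33 ± 0.14 (adjusted p = 0.998), the lowest p of the members there. Pdhb (1314 to 1693 in FST, 2418 to 2912 in PHT, 2551 to 3766 in PTGC) and the E2 subunit Dlat (1034 to 1475, 1915 to 2195 and 2055 to 2272) overlapped between Ptpmt1 knockouts and controls in FST and PHT. In PTGC all 5 subunits had estimates below 0, from -0.35 (Dld) to -0.067 (Dlat), and 1 of the 5 had an unadjusted p under 0.05. Without control 3 they were -0.14 (Dld), -0.12 (Pdhb), -0.12 (Pdhx), -0.049 (Pdha1) and -0.046 (Dlat).

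The 4 kinases differ in their regulation: Pdk1 is induced by low oxygen through HIF1, and Pdk4 by fasting and fatty acids through PPAR-alpha. Per length, Pdk3 made up 55.9% ± 2.15 (SD, n = 3) of the summed kinase level in FST controls, Pdk1 26.8% ± 0.39, Pdk2 9.65% ± 1.10 and Pdk4 7.58% ± 0.844. The order of the means, Pdk3, Pdk1, Pdk2, Pdk4, also held for the PHT and PTGC controls. Pdk3 stood there at 52.2% and 56.1% and Pdk4 at 7.47% and 7.59%. In PTGC the last 2 overlapped, with Pdk2 at 7.90% ± 2.26 (5.72% to 10.2%). This order rests on all annotated exons, 7779 bases for Pdk1 and 2561 for Pdk3, and which transcripts were present was not tested. Without division by length, Pdk1 stood above Pdk3 in the controls. The means were 1796 and 1230 in FST, 2772 and 1692 in PHT, and 3634 and 2375.5 in PTGC. Pdk4 read 249, 263 and 179 in the controls, 159, 186 and 218 in the Eif2a mutants, 179.8, 142 and 249 in the Ptpmt1 knockouts and 169.6, 181 and 185 in the double mutants in FST. In PHT it gave 356 and 308 in the controls, 355 and 339.5 in the Hri knockouts, 392.4, 295 and 330.1 in the Ptpmt1 knockouts and 331 and 349.5 in the double knockouts, and in PTGC 426, 398 and 488 (controls) against 367, 391 and 401 (double knockouts). Groups overlapped in each of these. The Ptpmt1 effect on Pdk4 was -0.29 ± 0.20 (adjusted p = 0.563) in FST and 0.026 ± 0.13 (adjusted p = 0.999) in PHT. The PTGC double knockouts, which lack both Ptpmt1 and Gcn2, gave -0.18 ± 0.11 (adjusted p = 0.521) against control. Without FST Ptpmt1 knockout 2 the FST value of Pdk4 was -0.10, without knockout 3 -0.50, and without PTGC control 3 the PTGC value was -0.094.

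Pdk1 read 1880.0, 1915 and 1594 in the controls, 2167, 2321 and 2457 in the Eif2a mutants, 1881, 1349 and 1807 in the Ptpmt1 knockouts and 2178, 1984 and 2108 in the double mutants in FST. All 3 Eif2a mutants and all 3 double mutants lay above every control and every Ptpmt1 knockout. The fold change was 0.37 ± 0.11 (adjusted p = 0.419) for the Eif2a mutants against control and 0.33 ± 0.11 (adjusted p = 0.204) for the double mutants against the Ptpmt1 knockouts. With a term for sex the Eif2a mutant estimate of Pdk1 was 0.36 (adjusted p = 0.929). As a share of the kinase level, Pdk1 stood at 33.5% ± 0.37 in the Eif2a mutants and 33.8% ± 1.018 in the double mutants (SD, n = 3 each). Without Ptpmt1 knockout 2, the lowest library, the double mutants differed from the knockouts by 0.18. In PHT the Pdk1 values were 2680.0 and 2865 in the controls, 2853 and 3234 in the Hri knockouts, 2678, 2529.6 and 2339.9 in the Ptpmt1 knockouts and 2815 and 3106 in the double knockouts. The PHT Ptpmt1 knockouts all lay below the controls (-0.14 ± 0.087) and the double knockouts above the Ptpmt1 knockouts (0.24 ± 0.087, adjusted p = 0.436; 0.14 with a term for sex). PTGC gave 3265, 3388 and 4248 (controls) against 3207, 3007 and 3174 (double knockouts), with the double knockouts below all controls (-0.21 ± 0.11, adjusted p = 0.475), and without control 3 the estimate was -0.089.

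Pdk2 read 279.7, 307 and 207 in the controls, 207, 232 and 217 in the Eif2a mutants, 188, 103 and 324 in the Ptpmt1 knockouts and 163, 124 and 180.3 in the double mutants in FST, the widest spread of any member within a group (a coefficient of variation of 54.4% among the Ptpmt1 knockouts). Its fold change was -0.50 ± 0.29 (adjusted p = 0.485) in the Ptpmt1 knockouts and -0.76 ± 0.29 (adjusted p = 0.396) in the double mutants, all 3 of which lay below the controls. The Ptpmt1 knockout estimate of Pdk2 was -0.079 without knockout 2 and -0.90 without knockout 3. In PHT and PTGC Pdk2 ran over 349 to 539 and 345 to 472, with overlapping Ptpmt1 and control groups. Pdk3, on the X chromosome, gave 1311, 1243 and 1136 in the controls, 1116, 1180.4 and 1301 in the Eif2a mutants, 1256, 1186 and 857 in the Ptpmt1 knockouts and 1134, 1114 and 1027 in the double mutants in FST. The FST double mutants lay below the controls, and Ptpmt1 knockout 3, the highest library for Pdk2, was the lowest for Pdk3. In PHT Pdk3 read 1624 and 1760.5 in the controls, 1774 and 1764 in the Hri knockouts, 1592, 1577 and 1586 in the Ptpmt1 knockouts and 1624 and 1653 in the double knockouts, with the Ptpmt1 knockouts below all other libraries. PTGC gave 2335, 1945 and 2847 (controls) against 1785, 1619 and 1819 (double knockouts) for Pdk3. The PTGC double knockouts of Pdk3 were below all controls, at 74.1% (95% interval 60.8% to 90.3%) of control or -0.43 ± 0.13 (adjusted p = 0.272) on the log2 scale, and without control 3 the estimate was -0.29.

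**Figure D4:**
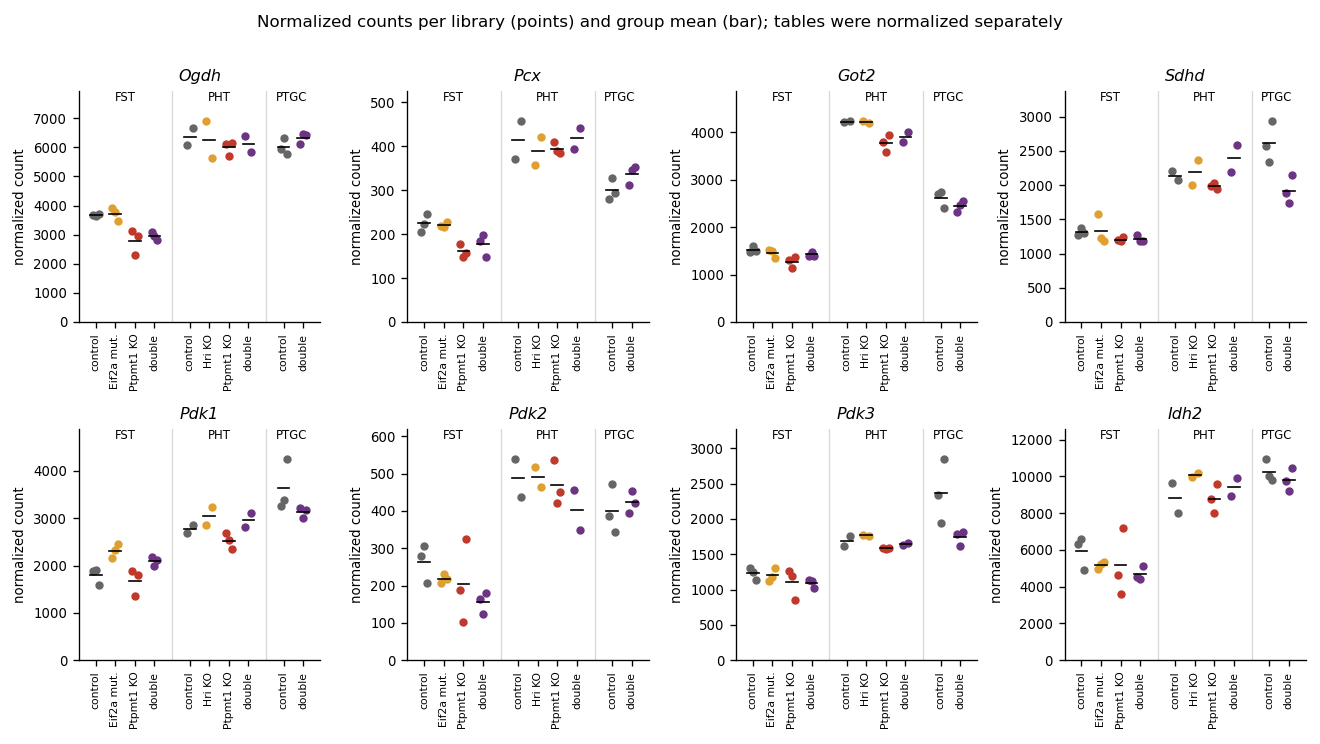
Normalized counts (vertical axis, from 0) of 8 members in each library (points) by genotype, with group means as bars and the 3 tables side by side; tables were normalized separately. Ogdh and Pcx are lower in the FST Ptpmt1 knockouts, Pdk1 higher in the FST Eif2a mutants and double mutants, and Pdk2 and Idh2 show FST Ptpmt1 knockout 3 above its mates.

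The phosphatases Pdp1 and Pdp2 reactivate the complex, and Pdpr is the regulatory subunit of Pdp1. Pdpr read 549, 542 and 529 in the controls, 516, 599.8 and 584 in the Eif2a mutants, 589, 511 and 545 in the Ptpmt1 knockouts and 501, 605 and 506 in the double mutants in FST. In PHT Pdpr gave 743 and 768 in the controls, 845 and 805 in the Hri knockouts, 772, 805 and 812 in the Ptpmt1 knockouts and 747 and 733 in the double knockouts, and in PTGC 856, 991 and 1124 (controls) against 938, 925 and 923 (double knockouts). The PHT Ptpmt1 knockouts of Pdpr lay above the controls and above the double knockouts, the interaction was -0.23 ± 0.12 (adjusted p = 0.998), and the FST and PTGC groups overlapped. Pdp1 (57.1 to 130.0 in FST, 129.7 to 196 in PHT, 193 to 277 in PTGC) and Pdp2 (171 to 247, 289 to 347 and 276 to 411) had unadjusted p above 0.05 in all 3 comparisons of Ptpmt1 loss with control.

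Pcx, pyruvate carboxylase, refills the cycle with oxaloacetate. In FST Pcx read 205, 223 and 246 in the controls, 218, 217 and 227 in the Eif2a mutants, 177, 148 and 158 in the Ptpmt1 knockouts and 185, 199 and 148 in the double mutants. The Ptpmt1 knockouts lay below all controls, at 71.9% (95% interval 58.8% to 87.8%) of control, a log2 fold change of -0.48 ± 0.14 (adjusted p = 0.144). The FST double mutants also lay below all controls (-0.35 ± 0.14, adjusted p = 0.409). In PHT Pcx gave 370.2 and 457 in the controls, 358 and 421 in the Hri knockouts, 409.8, 389.7 and 384 in the Ptpmt1 knockouts and 394 and 442 in the double knockouts, and in PTGC 280.0, 327 and 294 (controls) against 313, 346 and 352 (double knockouts). Those groups overlapped, and the interval of the fold change was -0.32 to 0.20 in PHT and -0.090 to 0.42 in PTGC, where the estimate was above 0.

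Me3, the mitochondrial malic enzyme that needs NADP, was thinly covered, with 11 reads in FST Eif2a mutant 1 and 12 in double mutant 2. In FST it read 44.4, 48.2 and 31.6 in the controls, 14.0, 19.9 and 21.0 in the Eif2a mutants, 33.4, 24.6 and 53.0 in the Ptpmt1 knockouts and 28.0, 53.0 and 24.6 in the double mutants. All 3 Eif2a mutants lay below every other FST library, at -1.14 ± 0.36 (adjusted p = 0.436) against control, and the FST interaction was 1.05 ± 0.51 (adjusted p = 0.708). In PHT Me3 gave 63.1 and 50.1 in the controls, 87.0 and 47.5 in the Hri knockouts, 38.6, 54.7 and 43.0 in the Ptpmt1 knockouts and 72.4 and 47.6 in the double knockouts, and in PTGC 62.1, 75.3 and 45.9 (controls) against 80.8, 83.7 and 69.8 (double knockouts), with overlapping Ptpmt1 and control groups in both.

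Citrate synthase (Cs) starts the cycle and is often used as a measure of mitochondrial content. Cs read 4888, 4824 and 4730.2 in the controls, 5562, 5059 and 4742 in the Eif2a mutants, 4485, 4034 and 4903 in the Ptpmt1 knockouts and 4703, 4910.1 and 4523 in the double mutants in FST. In PHT it gave 6842 and 7591 in the controls, 7503 and 7554 in the Hri knockouts, 6931, 7345 and 7569 in the Ptpmt1 knockouts and 7214 and 7478 in the double knockouts, and in PTGC 8649.8, 8537 and 8884 (controls) against 8480.4, 8269 and 8901 (double knockouts). All groups of Ptpmt1 loss overlapped with their controls. The interval of the Ptpmt1 effect on Cs was -0.29 to 0.071 in FST and -0.16 to 0.19 in PHT. That of the PTGC double knockouts against control was -0.23 to 0.18, so a change of 1 log2 unit lies outside all 3.

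Idh3a is the catalytic subunit of the isocitrate dehydrogenase that uses NAD, with Idh3b and Idh3g as its partners. In FST Idh3a read 2156, 2132 and 2179 in the controls, 2079, 2125 and 2136 in the Eif2a mutants, 2213, 2226 and 2107 in the Ptpmt1 knockouts and 2337, 2267 and 2125 in the double mutants. PHT gave 3144 and 3256 in the controls, 3155 and 3343 in the Hri knockouts, 3167, 3305 and 3303 in the Ptpmt1 knockouts and 3185 and 3696 in the double knockouts for it, and PTGC 4165, 3751 and 5003 (controls) against 3788, 3262 and 3718 (double knockouts). Its interval in FST, -0.13 to 0.16, was the narrowest of the 34, and in PTGC the fold change was -0.26 ± 0.12 (adjusted p = 0.435), or -0.14 without control 3. Idh3b (1161 to 1472 in FST) and Idh3g (814 to 1153) had FST effects of -0.030 ± 0.087 and -0.095 ± 0.12. Idh2, the enzyme that uses NADP, read 6319.7, 6597 and 4918 in the controls, 4973, 5210.2 and 5349.9 in the Eif2a mutants, 4638, 3611 and 7199 in the Ptpmt1 knockouts and 4500.3, 4384 and 5131 in the double mutants in FST. Its 3 FST Ptpmt1 knockouts spanned the range of all 12 libraries, and the fold change was -0.26 ± 0.18 (adjusted p = 0.590), or -0.029 without knockout 2 and -0.53 without knockout 3.

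Ogdh is the E1 subunit of 2-oxoglutarate dehydrogenase, often the slowest step of the cycle, and Dlst is its E2. Ogdh lies on the plus strand of mouse chromosome 11 (chr11:6291633-6356642, mm10, GENCODE vM21) and no other gene's exons overlap its own. In FST Ogdh read 3679, 3641 and 3695 in the controls, 3915, 3792 and 3461 in the Eif2a mutants, 3121, 2305 and 2949 in the Ptpmt1 knockouts and 3088, 2939 and 2814 in the double mutants. All 3 Ptpmt1 knockouts and all 3 double mutants lay below every control and every Eif2a mutant. The Ptpmt1 knockouts stood at 75.4% (95% interval 65.2% to 87.2%) of control, a log2 fold change of -0.41 ± 0.099 (adjusted p = 0.0929), the lowest p of the members in that comparison. DESeq2 gave -0.39 with an adjusted p of 0.00786, and 27 of the 34 members had an adjusted p from it in this comparison. The double mutants stood at -0.32 ± 0.099 (adjusted p = 0.282) against control and 0.089 ± 0.099 against the Ptpmt1 knockouts. With a term for sex, which the expression of sex-linked genes gave as 3 of 3 males in the Ptpmt1 knockouts and 1 of 3 in the controls, the fold change of Ogdh was -0.37 (adjusted p = 0.632). Without Ptpmt1 knockout 2 it was -0.28.

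The same difference was not seen at that size in the other lines. In PHT Ogdh gave 6078 and 6663 in the controls, 6897 and 5629 in the Hri knockouts, 6125, 5702 and 6164 in the Ptpmt1 knockouts and 6400.5 and 5856 in the double knockouts. In PTGC it gave 5937, 6337 and 5775 (controls) against 6104, 6442 and 6411 (double knockouts). The interval in PHT, -0.29 to 0.12, and in PTGC, -0.13 to 0.27, both include 0 and exclude the FST estimate from all libraries. Without the lowest FST Ptpmt1 knockout, the FST estimate lay inside the PHT interval and still outside the PTGC interval. The difference between lines was not tested because the tables were normalized separately. Dlst in FST lay lower in all 3 Ptpmt1 knockouts (-0.13 ± 0.068, adjusted p = 0.437) and in all 3 double mutants (-0.21 ± 0.068, adjusted p = 0.312) than in every control, over a range of 2311 to 2768.

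Succinyl-CoA synthetase makes ATP with the beta subunit Sucla2 and GTP with Suclg2, each paired with the alpha subunit Suclg1. Sucla2 read 977, 1018 and 988 in the controls, 921, 1024 and 975 in the Eif2a mutants, 969.7, 924 and 928 in the Ptpmt1 knockouts and 843, 849 and 883 in the double mutants in FST. PHT gave 1226 and 1277 in the controls, 1402 and 1425 in the Hri knockouts, 1385, 1410.4 and 1309 in the Ptpmt1 knockouts and 1375 and 1522 in the double knockouts, and PTGC 1993, 1669.6 and 2517 (controls) against 1749.5, 1553 and 1649.9 (double knockouts). The Ptpmt1 knockouts lay below all controls in FST (-0.081 ± 0.073) and above both controls in PHT (0.13 ± 0.079). The FST double mutants lay below all other FST libraries, at -0.21 ± 0.073 (adjusted p = 0.336) against control, and the PHT double knockouts above the controls, at 0.21 ± 0.087 (adjusted p = 0.740). Per length, Sucla2 made up 67.5% ± 1.99 of the beta subunits in FST controls and 65.8% ± 0.282 in FST Ptpmt1 knockouts (SD, n = 3 each). Suclg1 (948 to 1087 in FST) and Suclg2 (486 to 618) had FST effects of -0.034 ± 0.079 and 0.026 ± 0.11.

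Succinate dehydrogenase is both a TCA enzyme and complex II of the respiratory chain; Sdha and Sdhb form its soluble head, Sdhc and Sdhd its membrane anchor. Sdha read 3516, 3712 and 3516 in the controls, 3396, 3631 and 3449.8 in the Eif2a mutants, 3214, 2726 and 3559.9 in the Ptpmt1 knockouts and 3049, 2868 and 2871 in the double mutants in FST. PHT gave 5099 and 5266 in the controls, 5386 and 5529.8 in the Hri knockouts, 5117, 4996 and 5337 in the Ptpmt1 knockouts and 4950.0 and 5523 in the double knockouts for Sdha, and PTGC 5923, 6063 and 7462 (controls) against 5758, 5822 and 5875 (double knockouts). The FST double mutants of Sdha were below all controls, at 81.8% (95% interval 71.8% to 93.2%) of control, a log2 fold change of -0.29 ± 0.088 (adjusted p = 0.269), and the FST Ptpmt1 knockouts at -0.19 ± 0.088 (adjusted p = 0.376), or -0.082 without knockout 2. In PHT the interval for Sdha was -0.17 to 0.16.

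Sdhb gave 1423, 1558 and 1639 in the controls, 1253, 1366 and 1301 in the Eif2a mutants, 1281, 1364 and 1556 in the Ptpmt1 knockouts and 1360.3, 1498 and 1409.8 in the double mutants in FST. The Eif2a mutants of Sdhb were below all controls (-0.24 ± 0.087, adjusted p = 0.512), and the FST interaction, 0.26 ± 0.12 (adjusted p = 0.708), had the lowest p of the members. PHT gave 2293 and 2234 in the controls, 2284 and 2423 in the Hri knockouts, 2231, 2418 and 2351 in the Ptpmt1 knockouts and 2287 and 2849 in the double knockouts for Sdhb, and PTGC 2785, 2553 and 2870.4 (controls) against 2389, 2351 and 2633 (double knockouts), with overlapping Ptpmt1 and control groups. Sdhc ranged over 844 to 1410.2 in FST, where Ptpmt1 knockout 3 was the highest library and the other 2 knockouts the lowest.

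Sdhd lies on the minus strand of chromosome 9 (chr9:50596357-50603812). In PTGC Sdhd read 2574, 2341 and 2931 (controls) against 1876, 1734 and 2143 (double knockouts). All 3 double knockouts lay below the controls, at 73.4% (95% interval 61.7% to 87.3%) of control, a log2 fold change of -0.45 ± 0.11 (adjusted p = 0.169). DESeq2 gave an adjusted p of 0.0369 for Sdhd, and without PTGC control 3 the fold change was -0.36 (limma adjusted p = 0.151). In FST Sdhd read 1275, 1366 and 1302 in the controls, 1581, 1232 and 1189.8 in the Eif2a mutants, 1190.1, 1182 and 1235 in the Ptpmt1 knockouts and 1270.0, 1184 and 1178 in the double mutants. PHT gave 2204 and 2068 in the controls, 2004 and 2372 in the Hri knockouts, 1987, 2025 and 1949 in the Ptpmt1 knockouts and 2186 and 2588 in the double knockouts. The Ptpmt1 knockouts lay below all controls in both lines (-0.13 ± 0.096 in FST and -0.10 ± 0.092 in PHT), and the PHT double knockouts lay above the Ptpmt1 knockouts (0.26 ± 0.092, adjusted p = 0.404). The PHT interaction for Sdhd was 0.23 ± 0.14 (adjusted p = 0.998).

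Fumarase (Fh1) turns fumarate into malate. Fh1 read 1251, 1338 and 1433 in the controls, 1194, 1312 and 1182 in the Eif2a mutants, 1267, 1268 and 1357 in the Ptpmt1 knockouts and 1238, 1145 and 1103 in the double mutants in FST. PHT gave 1957 and 1933 in the controls, 1819 and 2008 in the Hri knockouts, 1869.8, 1903 and 1936 in the Ptpmt1 knockouts and 1823 and 2221 in the double knockouts, and PTGC 2280.2, 2269 and 2950.5 (controls) against 2033, 2010.4 and 2065 (double knockouts). The FST double mutants of Fh1 lay below all controls (-0.21 ± 0.081, adjusted p = 0.410) and below all Ptpmt1 knockouts (-0.16 ± 0.081, adjusted p = 0.402). In PTGC the double knockouts of Fh1 lay below all controls too (-0.28 ± 0.11, adjusted p = 0.389), and without control 3 the estimate was -0.16.

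Mitochondrial malate dehydrogenase (Mdh2) closes the cycle, and with its cytosolic form Mdh1 and the mitochondrial aspartate aminotransferase Got2 it serves the malate-aspartate shuttle. Got2 read 1464, 1601 and 1495 in the controls, 1524, 1504 and 1349 in the Eif2a mutants, 1312, 1134 and 1372 in the Ptpmt1 knockouts and 1396, 1481 and 1393 in the double mutants in FST. PHT gave 4212 and 4227 in the controls, 4223 and 4183 in the Hri knockouts, 3779.5, 3580.4 and 3939 in the Ptpmt1 knockouts and 3788 and 4005 in the double knockouts, and PTGC 2691, 2746 and 2393 (controls) against 2319, 2472 and 2551 (double knockouts). The Ptpmt1 knockouts of Got2 were below all controls in both FST (-0.26 ± 0.086, adjusted p = 0.202) and PHT (-0.16 ± 0.074, adjusted p = 0.999). Only 1 other member, Sdhd, was below in both. Of all genes, 9.48% were below in FST and 11.6% in PHT, and the share below in both was not computed. In PTGC the Got2 groups overlapped (-0.091 ± 0.096). The opposite-strand gene Gm45760 shares 434 of the 4824 exonic bases of Got2.

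Mdh1 gave 5444, 5713 and 5096 in the controls, 4834, 5277 and 5105 in the Eif2a mutants, 4958, 4819.6 and 5295 in the Ptpmt1 knockouts and 4961, 4888 and 4981 in the double mutants in FST, with the double mutants below the controls. PHT gave 8371 and 7617 in the controls, 7811 and 8772 in the Hri knockouts, 7661, 7729.5 and 8005 in the Ptpmt1 knockouts and 7999 and 9622 in the double knockouts, and PTGC 9988, 9339 and 12951 (controls) against 8103, 8074 and 8680.5 (double knockouts). The PTGC double knockouts of Mdh1 were below all controls, at -0.36 ± 0.13 (adjusted p = 0.343), and without control 3 the estimate was -0.22. Mdh2 ranged over 2330.1 to 3219 in FST, with effects of -0.25 ± 0.093 (adjusted p = 0.249) in the Ptpmt1 knockouts and -0.22 ± 0.093 (adjusted p = 0.431) in the double mutants.

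Counts of members whose groups did not overlap followed the same split. In FST Ptpmt1 knockouts, 6 members lay wholly below the controls (9.48% of all genes did) and 1 above (9.61%). In FST double mutants 12 lay below (9.87%) and 1 above (9.64%), and in PTGC double knockouts 9 below (9.05%) and 0 above (8.98%). In PHT, 4 lay below (11.6%) and 3 above (12%) in the Ptpmt1 knockouts. The PHT Hri knockouts were the reverse, with 0 members wholly below the controls (14.4%) and 12 above (15%), a member median of 0.067 (2 male knockouts, 2 female controls) and 30 of 34 estimates above 0 (51%). No member there had an unadjusted p under 0.05 (3.24% of all genes did), and 0 were called by limma, edgeR or DESeq2. Over the alternative settings, 4 to 10 members had estimates below 0 in the Hri knockouts against control. Between the FST and PHT Ptpmt1 knockouts, which share no library, the 34 fold changes had a Pearson r of 0.37 across genes, which are not independent replicates. Across these 2 and PTGC, 12 members were below 0 in all 3 comparisons and 0 were above 0 in all 3. The 12 were Dlat, Pdk1, Pdk3, Idh2, Idh3b, Dlst, Sdha, Sdhd, Fh1, Mdh1, Mdh2 and Got2. In the single comparisons 51% (FST), 49.1% (PHT) and 49.5% (PTGC) of all genes were below 0. The share of all genes below 0 in all 3 was not computed, so this count has no background beside it. Without FST Ptpmt1 knockout 2 the FST estimate of Pdk1 was 0.042.

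Calls among the members depended on single libraries. Without FST Ptpmt1 knockout 3, limma called 858 genes between Ptpmt1 knockout and control, and 6 of them were members, all lower: Ogdh (-0.45), Got2 (-0.32), Mdh2 (-0.36), Sdhc (-0.46), Idh2 (-0.53) and Pdk2 (-0.90). In that fit the lowest adjusted p among them was 0.00914 (Sdhc) and the highest 0.0436 (Got2). Sdhc was then also called higher in the double mutants than in the Ptpmt1 knockouts (0.36). Without PTGC control 2, 535 genes were called, among them Sdhd (-0.52) and Pdk3 (-0.57), both lower. Without PTGC control 3 the member median moved from -0.18 to -0.10, and no member was called.

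Lists of neighbouring pathways were read in the same way. Of 18 genes for anaplerosis and metabolite shuttles, 2 rose in the FST and PHT Ptpmt1 knockouts and in the PTGC double knockouts. Gpt2, the mitochondrial alanine aminotransferase, rose by 1.53 ± 0.22 (adjusted p = 0.00410) in FST, 0.96 ± 0.15 (adjusted p = 0.00907) in PHT and 1.59 ± 0.14 (adjusted p = 8.88e-05) in PTGC. Pck2, the mitochondrial PEP carboxykinase, rose by 0.92 ± 0.14 (adjusted p = 0.00548), 0.84 ± 0.13 (adjusted p = 0.00815) and 1.45 ± 0.11 (adjusted p = 1.95e-05). Both also stand in the ISR list. Both fell in the double mutants against the Ptpmt1 knockouts, Gpt2 with fold changes of -1.504 ± 0.22 (adjusted p = 0.00526) in FST and -1.06 ± 0.15 (adjusted p = 0.00449) in PHT, Pck2 with -1.01 ± 0.14 (adjusted p = 0.00379) and -0.89 ± 0.13 (adjusted p = 0.00500). Of 13 genes for lipoylation and for assembly of succinate dehydrogenase, 0 were called by limma, edgeR or DESeq2 in the same comparisons (medians -0.047, 0.041 and -0.10; 0, 0 and 1 at an unadjusted p under 0.05). The 3 tools also called 0 of 16 tested PPAR-alpha targets, the group beside Pdk4, with medians of -0.12, 0.023 and -0.073 and 1, 1 and 5 genes at an unadjusted p under 0.05. Of 15 PGC-1 and ERR regulators of mitochondrial genes, limma and edgeR called 0 and DESeq2 1, in FST, with medians of -0.12, -0.058 and -0.073 and 1, 0 and 1 genes at an unadjusted p under 0.05.

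The 15 HIF1 targets were read beside Pdk1. In FST all 15 had a fold change above 0 in the Eif2a mutants against control, beside 48.1% of all genes, with a median of 0.38. All 3 of these Eif2a mutants were male, against 1 of 3 controls, and the list was not read with a term for sex. Of the 15 targets, 10 had an unadjusted p under 0.05, beside 7.97% of all genes, while limma and edgeR called 0 and DESeq2 called 5 (0.383% of genes). The 4 with the lowest p were the prolyl hydroxylase Egln1 (0.56 ± 0.11, adjusted p = 0.155), the glycolytic regulator Pfkfb3 (0.59 ± 0.12, adjusted p = 0.196), hexokinase Hk2 (0.48 ± 0.10, adjusted p = 0.196) and Bnip3 (0.66 ± 0.17, adjusted p = 0.303). In the FST double mutants 14 of 15 were above 0 against control (median 0.30, 49.3% of all genes) and 13 against the Ptpmt1 knockouts (median 0.31, 49.2%), where lactate dehydrogenase Ldha and phosphoglycerate kinase Pgk1 rose (0.46 ± 0.074, adjusted p = 0.00887 and 0.39 ± 0.075, adjusted p = 0.0259). In the FST Ptpmt1 knockouts the median of the list was 0.021. In PTGC 1 of 15, the growth factor Vegfa, rose (0.56 ± 0.11, adjusted p = 0.0352). Pdk1 is itself a HIF1 target by background knowledge and was kept out of the list.

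Promoter sequence was read for the members that the comparisons turned on. Of the 34 members, 31 were found in the RefSeq promoter table (GRCm38.p6, windows of 250 bases before to 50 after the start), with 40 promoters. The E-box CACGTG, the same on both strands, was held by 7 of the 40 (17.5%), from the genes Ogdh, Pcx, Pdk2, Pdp2 and Pdpr, and by 7.15% of all promoters of that length. Counted by gene, 5 of the 31 members held it, beside 8.09% of all genes, since 1 Ogdh site was counted in more than 1 overlapping promoter. The ERR element TNAAGGTCA on either strand was held by 1 member promoter, that of Sdhd (1.28% of all), and the ATF4 element TGATGNAAN on either strand by 1, that of Me3 (3.95% of all). The motifs were chosen after results of these data were known, and a match is only a description. Windows are shown for Ogdh, Pcx and Sdhd, which had the lowest p in FST and PTGC, and for Pdk2, the most variable member. Those of Ogdh lie in promoters of different starts. They are printed 5′ to 3′ on the gene's strand, with the motif in capitals.
Ogdh, chr11:6292050-6292075, plus strand: cgcggcgtgtCACGTGgaccggtcgc
Ogdh, chr11:6292407-6292432, plus strand: caagaatcctCACGTGgataccatgt
Pcx, chr19:4510222-4510239, plus strand: ccCACGTGaggctttcaa
Pdk2, chr11:95041482-95041507, minus strand: cgaggagagcCACGTGtcgaagcgca
Sdhd, chr9:50603800-50603823, minus strand: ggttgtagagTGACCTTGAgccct
In the Sdhd window the capitals are the reverse complement of the ERR element.

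Finally, the members' shares of each library's summed signal were set side by side across lines, as a description only, since the tables were normalized separately and a line differs from another in more than genotype. Mpc1 took 14.6 to 19.4 ppm in the 9 PHT libraries, against 5.83 to 9.54 in the 12 FST libraries and 6.23 to 9.06 in the 6 PTGC libraries. Got2 took 270 to 317 ppm in PHT, against 144 to 196 and 175 to 208. Suclg2 took 91.5 to 109 ppm in PHT, against 58.3 to 75.8 and 64.4 to 89.9. These 3 members lay wholly above both other lines, whatever the genotype, as did 2.45% of the 13770 genes tested in all tables; Pdha1 lay wholly below (229 to 274 ppm in PHT), as did 0.741% of genes. The share of Sucla2 in the beta subunits of succinyl-CoA synthetase was 50.7% to 57.4% in PHT, 62.8% to 69.6% in FST and 66.4% to 70.3% in PTGC. The median of Suclg2 in PHT was 1.39 times that in FST and 1.33 times that in PTGC, and the median of Sucla2 0.874 and 0.788 times.

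**Figure D5:**
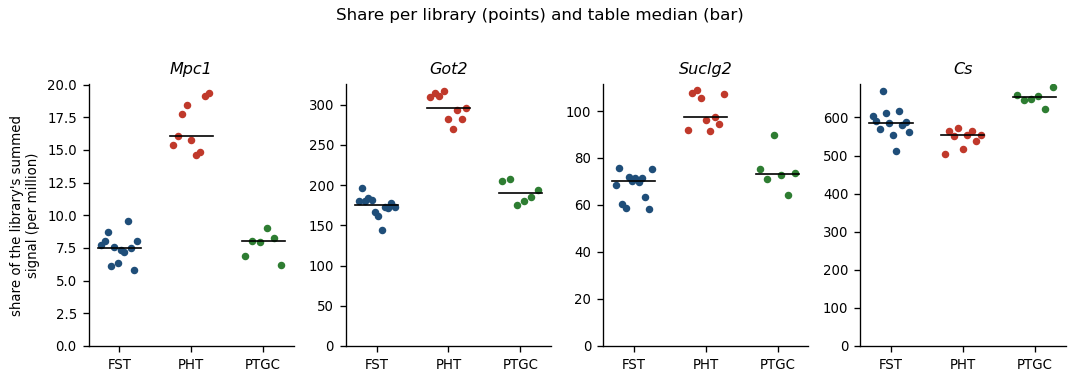
Share of each library's summed signal (ppm, from 0) taken by Mpc1, Got2, Suclg2 and, for contrast, Cs, with 1 point per library and the table median as a bar. Mpc1, Got2 and Suclg2 lie wholly higher in PHT than in FST and PTGC, and Cs does not.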

How the data were processed

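The deposited unit is a signal (normalized counts) that behaves as reads divided by a size factor: every value in a column is a whole multiple of 1 step. Division by that step gave whole reads (tolerance 0.1) for 100% of values, which feed the depths and the count tests. STAR 2.5.3a, DESeq2 1.12.4 and mm10 are named, without roles, per the submitters' processing notes; the sources used here do not give the counter, annotation or strand setting, and reads of overlapping genes cannot be assigned. Of 33 samples, 27 libraries were used; the 6 samples of a line with the Ptpmt1 knockout alone are not analysed here. Labels gave every group, and each value column matched a sample.

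The main test was limma 3.58.1 under R 4.3.3 (with a mean-variance trend, two-sided), applied to log2(value + 1) with every group of a table in the same fit. It covered genes with a value of at least 10 in as many libraries as the smallest group holds (13896, 14965 and 14128 genes), with Benjamini-Hochberg adjustment and a threshold of 0.05. Fold changes are ± SE on that scale, which understates changes of low genes; an adjusted p is limma's unless another tool is named. Alternatives were other pseudocounts (0.5 and 5), filters and scalings, edgeR 4.0.16, DESeq2 1.42.0, a sex term, a robust prior, fits of only the groups compared, each library left out, and FST without Eif2a mutant 1 and double mutant 2 together. The procedure was tested on simulated counts with known changes larger than most member differences, so its power for the smaller ones was not tested. No replicate pair was identical, and each differed by more than sampling noise. Exonic lengths and coordinates are from GENCODE vM21 (mm10).

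The members, the other lists and the motifs were chosen with earlier results of these data known. Members named with every library's value are those among the 3 lowest p in FST and PHT Ptpmt1 knockout against control, in PTGC, in the double mutants against Ptpmt1 knockout or in an interaction, plus Pdk4, Pdk1, Pdha1, Cs, Idh3a, Mpc1, Pcx and Sdha. Others given in full (Pdk2, Idh2) were named after their values were seen. Of other lists, called genes and at most 4 by p are named.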

Additional observations from a re-analysis of the deposited data

Results flagged for a closer look

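Sucla2, the beta subunit of the succinyl-CoA synthetase that makes ATP, went in opposite directions in 2 lines under the same contrast. In FST all 3 Ptpmt1 knockouts lay below all 3 controls, with a log2 fold change of -0.081, and in PHT all 3 Ptpmt1 knockouts lay above both controls, with 0.13. Neither difference passed the limma test (adjusted p = 0.701 and 0.999), and the difference between the lines was not tested, because the tables were normalized separately.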

How the results depend on the processing

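The count of members called stayed at 0 in 260 of 265 settings over the 13 comparisons. The exceptions were DESeq2, with 1 member called in FST Ptpmt1 knockout against control and 1 in PTGC, and leaving out a library: 0 to 6 members in FST Ptpmt1 knockout against control (6 without Ptpmt1 knockout 3), 0 to 1 in FST double mutant against Ptpmt1 knockout (1 without the same library) and 0 to 2 in PTGC (2 without control 2). The member median kept within the spread between replicates in 257 of 265 settings. It moved beyond that in PHT when a library was left out, over -0.023 to 0.11 for double knockout against control, -0.020 to 0.11 against Ptpmt1 knockout, -0.10 to 0.017 against Hri knockout and -0.080 to 0.014 for the interaction, so their sign depended on which library was left out. Over all settings the median also took both signs in FST double mutant against Ptpmt1 knockout (-0.067 to 0.022), in the FST interaction (-0.049 to 0.055) and in PHT Ptpmt1 knockout against control (-0.038 to 0.017). In FST Ptpmt1 knockout against control the median stayed between -0.14 (without Ptpmt1 knockout 3) and -0.027 (without Ptpmt1 knockout 2), in FST double mutant against control between -0.16 and -0.092 and in PTGC between -0.23 (without control 2) and -0.10 (without control 3). Of 416 settings for 21 single results on members, 410 kept their direction and side of the threshold, 6 became called and 0 changed direction.

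Counts of all genes called moved far more. They ran from 21 (sex term) to 858 (without Ptpmt1 knockout 3) around 70 in FST Ptpmt1 knockout against control, from 2 (without control 1) to 47 (DESeq2) around 5 for the Eif2a mutant, from 3 (without control 1) to 93 (DESeq2) around 20 for the double mutant, from 29 (without double mutant 3) to 321 (without Ptpmt1 knockout 3) around 122 for double mutant against Ptpmt1 knockout, from 1 to 22 (DESeq2) around 1 for double against Eif2a mutant, and from 2 (sex term) to 35 (without Ptpmt1 knockout 3) around 3 for the interaction. In PHT they ran from 23 (without control 2) to 69 (DESeq2) around 45 for Ptpmt1 knockout, 0 to 17 around 3 for Hri knockout, 0 to 14 around 4 for double knockout, 29 (sex term) to 105 (DESeq2) around 49 for double against Ptpmt1 knockout, 0 to 11 around 3 against Hri knockout and 2 (without control 1) to 38 (DESeq2) around 18 for the interaction. In PTGC they ran from 47 (without double knockout 3) to 535 (without control 2) around 105. The cause was not tested. Where a group was left with 1 library, that library was assumed to vary like the others.

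No paired analysis was possible because the labels give animal numbers and no replicate number shared between groups. Low depth limits Me3 and Mpc1, with as few as 11 reads in a library, and counting error adds to their intervals. With groups of 2 and 3 libraries, power for differences smaller than about 0.5 log2 units was not tested. The 95% interval lay within 0.5 of 0 for 25 of 34 members in FST Ptpmt1 knockouts against control. The same held for 33 in PHT Ptpmt1 knockouts and 24 in PTGC double knockouts. A member that was not called is not thereby shown to be unchanged.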

Other observations

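In the PHT Hri knockouts 30 of 34 members had estimates above 0 against control in the main fit, a count that moved with the settings. The 16 tested PPAR-alpha targets of fatty acid oxidation were also all above 0 in that fit (median 0.14, from 0.017 to 0.56), beside 51% of all genes. Of these targets, 0 were called by limma (1 at an unadjusted p under 0.05). Both Hri knockouts were male and both controls female by their sex-linked genes, so sex and genotype cannot be told apart in that comparison. Erythroid markers in the same libraries had a median of 0.22, with 8 of 9 above 0.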
